A study of Mus musculus with 8 samples.

Results

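The semaphorins, the plexins and the neuropilins were taken as every gene whose symbol names it as a numbered semaphorin (Sema), as a plexin of family A, B, C or D (Plxn) or as Nrp1 or Nrp2. There were 31 of them among the 19938 genes measured by a probe set that carries 1 symbol, made up of 20 semaphorins, 9 plexins and 2 neuropilins. A probe set is the group of array probes that reads 1 transcript. For 29 of the 31 genes there was 1 such probe set. Sema4d and Sema6b had 2, and their probe set was chosen by the mean level over the 8 arrays, the higher being used. No other measured value was used by that rule, although the group of genes was proposed with earlier results of these data known. The other probe set of Sema4d gave a similar difference (−0.15, SE 0.069, against −0.18, SE 0.082), and those of Sema6b held identical values on all 8 arrays.

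Expression was measured on single-colour arrays in epithelial cells of mouse lung at embryonic stage E18.5, selected with magnetic beads for the surface protein Epcam. The 4 knockout arrays, labelled Mst1/2 CKO, come from animals without the kinases Mst1 and Mst2 of the Hippo pathway in lung epithelial progenitors, where ShhCre, a Cre recombinase driven from the Shh locus, is active. The 4 control arrays are labelled Control, and whether those animals carried the Cre or a deletable allele is not given in the sources used here. Deletion reaches only cells in which Shh had been active, so other cells that came through the selection keep both kinases. All values below are log2 expression as deposited by the authors. Differences are knockout minus control, each with limma's moderated standard error (SE), tested over all 19938 genes with Benjamini-Hochberg adjustment over all of them and a threshold of 0.05. The labels call the arrays biological replicates without saying whether each is 1 animal, so the p-values measure the spread between these arrays, and 4 arrays a group limit the precision. Of the deleted genes, Stk4, which encodes Mst1, read 9.45, 9.44, 9.31 and 9.24 in knockout arrays, against 9.59, 9.84, 9.59 and 9.62 in control arrays, lower in every knockout array, although its probe set may lie outside the deleted part. The other deleted gene, Stk3 for Mst2, was not analysed here.

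Semaphorins are secreted or membrane-bound guidance proteins first studied in growing axons and now known to steer cell shape, adhesion and vessel growth as well. They share a sema domain through which they bind plexins, whose cytoplasmic part acts on small GTPases of the Ras and Rap families. The secreted class 3 members mostly need a neuropilin as co-receptor beside a plexin of family A, whereas Sema3e binds Plxnd1 directly. Class 4 members are membrane proteins that signal largely through plexins of family B, and Sema7a, held in the membrane by a glycolipid anchor, binds Plxnc1 and integrins. In explants of fetal mouse lung, class 3 semaphorins are known to affect the branching of the airway epithelium, and neuropilins also carry members of the VEGF family.

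The direction of change differed by class. Of the 20 semaphorins 60% passed the test, and of the 11 plexins and neuropilins 45.5%. Of the 31 genes 12 rose and 5 fell in knockout cells and 14 did not pass, so 17 were called, beside 18.8% of all genes (8.6% higher and 10.2% lower). In a fit of the 9969 genes above the median level, 11 of 26 members were higher and 5 lower. Of all 9969 genes 1483 were higher and 1593 lower. Secreted class 3 semaphorins were higher, 6 of 7 having risen by 1.28-fold to 2.06-fold, and the membrane-bound Sema5a, Sema6d and Sema7a rose too. In class 4 no member rose, and Sema4f, Sema4a and Sema4g fell by 1.43-fold to 2.56-fold. Among the receptors Plxna1, Plxnb2 and Nrp2 rose while Plxna4 and Nrp1 fell. The values of the 4 knockout arrays and the 4 control arrays did not overlap in 15 of the 31 genes, beside 22.1% of all genes. The median size of the difference, whatever its sign, was 0.31 in the 31 genes and 0.095 over all genes.

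**Figure D1:**
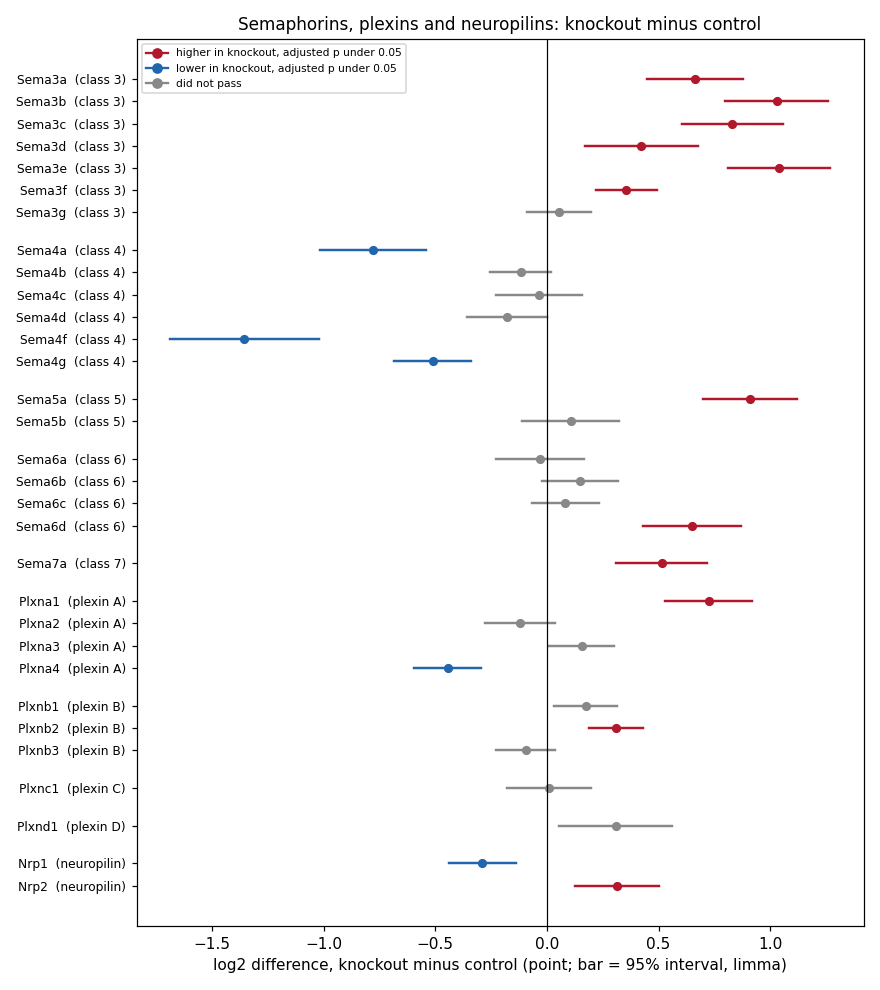
Log2 difference, knockout minus control (horizontal axis), of each of the 31 genes (vertical axis, by class), with points for the estimate and bars for limma's 95% interval, which is not adjusted for the number of genes. Red marks the 12 genes that rose, blue the 5 that fell and grey the 14 that did not pass; every class 3 point lies right of 0 and every class 4 point left of 0.

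Markers of other cell types moved between the groups as well, and fewer cells of a type cannot be told apart from less RNA per cell in bulk arrays. The mean over 15 alveolar type 1 markers, of the flat gas exchange cells, lay at 11.99 to 12.16 in knockout arrays and 11.50 to 11.65 in control arrays, and 12 of them rose. The mean over 14 alveolar type 2 markers, of the surfactant-producing cells, lay at 11.06 to 11.62 in knockout arrays and 12.30 to 12.51 in control arrays, and 13 fell. Of the cells that the selection should remove, 15 mesenchymal markers averaged 8.71 to 9.18 in knockout arrays and 8.46 to 8.86 in control arrays, with 4 higher and 0 lower. The 11 endothelial markers averaged 9.51 to 9.66 in knockout arrays and 9.12 to 9.45 in control arrays, with 6 higher and 0 lower. General epithelial markers averaged 11.28 ± 0.049 (SD, n = 4) in knockout and 11.24 ± 0.089 in control arrays. Of these 8 markers 2 were higher, Krt19 (0.62) and Krt8 (0.27), and 1 lower, Elf3 (−0.72). Epcam itself averaged 10.07 in knockout and 10.06 in control arrays. The array has no true zero, so none of these marker lists can be called absent, and their part in the results was not tested beyond the fits with the mesenchymal or the endothelial mean as a covariate.

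Class 3 holds the secreted semaphorins. Sema3e (probe set 10519747), the ligand of Plxnd1 that repels endothelial cells and axons, read 10.90, 10.95, 10.90 and 10.66 in knockout arrays, against 9.81, 9.66, 9.68 and 10.11 in control arrays. Every knockout value lay above every control value. It rose 2.06-fold (log2 difference 1.04, SE 0.10, adjusted p = 6.92e-05). Sema3b (10596680) acts through neuropilins and lies in a region counted as tumour-suppressing in human lung cancer. It read 10.47, 10.27, 10.50 and 10.26 in knockout arrays, against 9.43, 9.29, 9.08 and 9.58 in control arrays. Here too the groups were clear of each other, and the rise was 2.04-fold (1.03, SE 0.10, adjusted p = 7.47e-05).

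Sema3c (10519886), which attracts cells of the cardiac outflow tract, read 9.23, 9.20, 9.46 and 9.31 in knockout arrays, against 8.47, 8.45, 8.22 and 8.74 in control arrays, a rise of 1.78-fold (0.83, SE 0.10, adjusted p = 2.52e-04). Sema3a (10519717), the founding repellent of axon growth and the main semaphorin ligand of Nrp1, read 11.73, 11.79, 11.58 and 11.50 in knockout arrays, against 11.14, 10.83, 10.84 and 11.14 in control arrays. Both genes had every knockout array above every control array, and Sema3a rose 1.58-fold (0.66, SE 0.097, adjusted p = 7.03e-04). Sema3f (10596747), the main semaphorin ligand of Nrp2, had a smaller difference but also no overlap, with 9.57, 9.48, 9.57 and 9.70 in knockout arrays, against 9.28, 9.18, 9.19 and 9.25 in control arrays. The rise of Sema3f was 1.28-fold (0.35, SE 0.062, adjusted p = 0.00229), and the call ended once the mean of the mesenchymal markers was added as a covariate (0.30, adjusted p = 0.0523).

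Sema3d (10519693), a guidance cue of neural crest and vessels, was dim, at 6.45, 6.28, 6.74 and 6.63 in knockout arrays, against 5.87, 6.12, 6.08 and 6.33 in control arrays. Knockout replicate 2 lay below control replicate 4, so the groups overlapped. The rise of 1.34-fold (0.42, SE 0.11, adjusted p = 0.0255) ended without any 1 of knockout replicates 3 and 4 and control replicates 1, 2 and 3 (0.35 to 0.43, adjusted p = 0.0504 to 0.0781), without knockout replicates 1 and 4 together (0.41, adjusted p = 0.0992), and with the mesenchymal covariate (0.15, adjusted p = 0.420). The remaining class 3 gene, Sema3g (10413733), which is made by endothelial cells in other tissues, read 7.38 to 7.62 in knockout and 7.38 to 7.45 in control arrays and did not pass (0.053, 95% interval −0.089 to 0.20, adjusted p = 0.667).

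**Figure D2:**
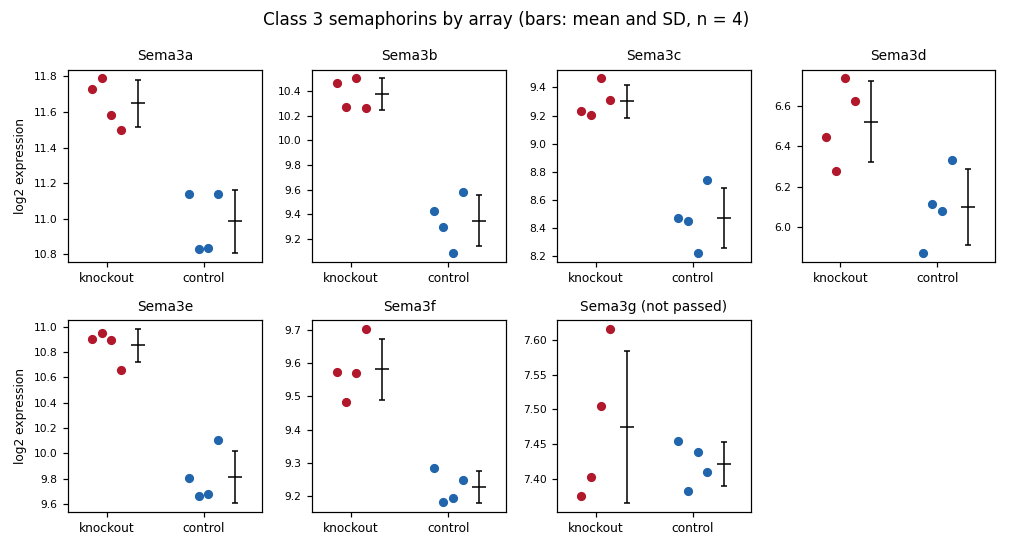
Log2 expression (vertical axis, on its own scale for each gene) of the 7 class 3 semaphorins on each array, with 4 knockout arrays in red left of 4 control arrays in blue and the mean and SD beside them. In Sema3a, Sema3b, Sema3c, Sema3e and Sema3f all knockout points lie above all control points, and Sema3d overlaps in 1 pair of arrays. Sema3g overlaps as well, with knockout replicates 3 and 4 above the control points.

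Within the control group, replicate 4 gave the highest value for Sema3b, Sema3c, Sema3d and Sema3e. That array also had the highest mean of the control group for the mesenchymal (8.86) and the endothelial markers (9.45). It was highest too for the type 1 (11.65), general epithelial (11.36), mesothelial (9.06), club (10.49), ciliated (8.54) and neuroendocrine and neuronal markers (6.34). For the type 2 and the leukocyte markers it was not. With the mesenchymal mean as a covariate, Sema3e kept a difference of 1.01 (SE 0.14, adjusted p = 0.00212), Sema3b 0.96 (SE 0.14), Sema3a 0.74 (SE 0.13) and Sema3c 0.66 (SE 0.12), all still called. Of the 31 genes 12 were called in that fit (8 higher, 4 lower), beside 9.25% of all genes. With the endothelial mean, on which the groups do not overlap, limma called 0 of the 31 (12 at an unadjusted p under 0.05). The median SE was 0.14 where it was 0.086 without the covariate. All 17 called genes kept their sign, but their differences shrank to a median of 0.67 of their size without the covariate.

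By the order of genes in the RefSeq annotation of assembly GRCm38.p6, Sema3d, Sema3a, Sema3e and Sema3c follow one another on chromosome 5. There are 0 other protein-coding genes between Sema3d and Sema3a, 3 between Sema3a and Sema3e and 15 between Sema3e and Sema3c, and all 4 rose. Sema3b and Sema3f, which rose too, lie on chromosome 9 with 3 protein-coding genes between them. The promoters of 3 of the neighbours on chromosome 5 are shown because these genes moved in the same direction while their promoters differ in make-up. Each runs 5′ to 3′ from 250 bases before to 50 bases after the gene start given by RefSeq (GRCm38.p6), and capitals mark CG dinucleotides. Sema3a, at chr5:13396534-13396833 on the + strand, holds 2 of them, Sema3e, at chr5:14025026-14025325 on the + strand, holds 11, and Sema3c, at chr5:17574566-17574865 on the + strand, holds 42.
Sema3a: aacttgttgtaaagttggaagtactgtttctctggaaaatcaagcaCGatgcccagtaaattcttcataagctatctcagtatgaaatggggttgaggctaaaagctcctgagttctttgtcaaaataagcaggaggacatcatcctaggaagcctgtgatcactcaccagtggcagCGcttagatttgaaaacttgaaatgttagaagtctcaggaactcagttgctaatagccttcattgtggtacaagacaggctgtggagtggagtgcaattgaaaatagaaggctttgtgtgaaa
Sema3e: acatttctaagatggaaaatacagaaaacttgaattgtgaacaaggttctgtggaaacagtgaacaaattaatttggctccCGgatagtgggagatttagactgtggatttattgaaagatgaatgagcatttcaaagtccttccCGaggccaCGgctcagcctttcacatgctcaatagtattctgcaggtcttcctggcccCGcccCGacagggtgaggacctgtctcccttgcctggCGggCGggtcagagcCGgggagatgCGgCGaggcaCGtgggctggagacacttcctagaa
Sema3c: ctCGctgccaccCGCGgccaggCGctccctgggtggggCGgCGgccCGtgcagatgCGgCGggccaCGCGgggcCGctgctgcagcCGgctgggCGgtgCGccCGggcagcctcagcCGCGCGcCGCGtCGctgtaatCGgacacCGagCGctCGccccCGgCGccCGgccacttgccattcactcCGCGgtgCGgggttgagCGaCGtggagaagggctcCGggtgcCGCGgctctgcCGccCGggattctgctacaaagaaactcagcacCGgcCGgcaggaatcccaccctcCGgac
Over all 32851 RefSeq promoters of the table, the median was 7 CG dinucleotides in 300 bases, with quartiles at 3 and 20, so Sema3a lies below the lower quartile, Sema3c above the upper one, and Sema3e between them.

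Class 4 moved the other way. Its 6 members are transmembrane proteins, all 6 differences were negative, and 3 passed, with 0 higher. Over all genes 10.2% were lower, and 10959 of 19938 differences were negative. Sema4f (10545608), known from neurons and glial precursors, read 7.94, 7.53, 7.74 and 7.29 in knockout arrays, against 9.26, 9.10, 8.89 and 8.67 in control arrays. The groups were apart by more than either group's own SD (0.28 in knockout, 0.26 in control). It fell 2.56-fold (log2 difference −1.36, SE 0.15, adjusted p = 1.29e-04), which made it the largest difference of the 31 genes in either direction.

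Sema4a (10499378), which in mouse immune cells acts on T cells and binds plexins of families B and D, read 8.06, 8.15, 8.08 and 8.02 in knockout arrays, against 8.74, 9.21, 8.82 and 8.65 in control arrays. The knockout arrays agreed closely (SD 0.053), the control arrays less so (SD 0.25), and the groups did not overlap. It fell 1.72-fold (−0.78, SE 0.11, adjusted p = 5.04e-04). Sema4g (10463430), a partner of Plxnb2 in the developing mouse cerebellum, read 7.31, 7.25, 7.28 and 7.52 in knockout arrays, against 8.0, 7.81, 7.83 and 7.77 in control arrays. It fell 1.43-fold (−0.51, SE 0.078, adjusted p = 9.16e-04), again without overlap. With the mesenchymal covariate these 3 falls were still called, at −1.06, −0.67 and −0.53 for Sema4f, Sema4a and Sema4g.

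The other 3 class 4 genes did not pass. Sema4d (10409240), the classical ligand of Plxnb1, read 8.36 to 8.52 in knockout and 8.50 to 8.87 in control arrays (−0.18, 95% interval −0.36 to 0.0017, adjusted p = 0.173). Sema4b (10554375) read 9.11 to 9.27 in knockout and 9.18 to 9.35 in control arrays (−0.12, interval −0.26 to 0.019). Sema4c (10353899), a ligand of Plxnb2, read 9.06, 9.12, 9.46 and 9.13 in knockout arrays, against 9.16, 9.26, 9.19 and 9.30 in control arrays (−0.034, interval −0.23 to 0.16), and knockout replicate 3 stood above the other 3 knockout arrays. Without knockout replicate 1 its difference was 0.0089, so its sign is not settled.

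Promoters of the 31 genes were also searched on both strands for GGAATG, the core of the motif bound by TEAD factors, the DNA-binding partners of Yap and Taz, and for TGANTCA, the AP-1 motif, which do not overlap each other in these promoters. Of the 31 genes 26 had at least 1 promoter in the RefSeq table, with 37 promoters in all. The TEAD core was found in 3 of the 37 promoters, beside 14.7% of all 32851, and the AP-1 motif in 3, beside 7.81%. The TEAD cores were in promoters of Plxnb1, Plxnd1 and Sema4a, of which only Sema4a was called, and the AP-1 matches were in Sema4c, Sema4d and Sema6b, none of them called. None of the printed class 3 promoters holds either motif. The promoter of Sema4a with the match is shown because it is the only one of a called gene, at chr3:88458835-88459134 on the − strand, with the core in capitals in its reverse complement, starting 144 bases before the gene start.
Sema4a: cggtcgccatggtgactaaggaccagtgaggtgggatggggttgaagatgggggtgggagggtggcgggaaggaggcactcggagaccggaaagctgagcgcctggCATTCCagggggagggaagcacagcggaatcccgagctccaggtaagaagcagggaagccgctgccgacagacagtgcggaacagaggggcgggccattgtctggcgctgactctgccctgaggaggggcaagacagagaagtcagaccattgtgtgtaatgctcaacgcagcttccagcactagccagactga
That promoter is 1 of 4 listed for Sema4a, and a match of letters does not show a binding site.

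Of classes 5 to 7, 3 of 7 genes rose and 0 fell, beside 8.6% of all genes higher and 10.2% lower. Sema5a (10423520), which carries thrombospondin repeats and restrains neurite growth in the mouse retina, read 10.56, 10.37, 10.65 and 10.45 in knockout arrays, against 9.76, 9.53, 9.38 and 9.72 in control arrays. Its groups did not overlap, and it rose 1.88-fold (0.91, SE 0.095, adjusted p = 8.78e-05). Sema6d (10475544), a ligand of Plxna1 in the chick heart, read 8.91, 9.01, 9.22 and 9.14 in knockout arrays, against 8.33, 8.41, 8.27 and 8.68 in control arrays. It rose 1.57-fold (0.65, SE 0.099, adjusted p = 9.71e-04), and the difference was 0.43 (adjusted p = 0.0161) with the mesenchymal covariate.

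Sema7a (10585778), the glycolipid-anchored ligand of Plxnc1 and beta 1 integrins, read 8.72, 8.60, 8.84 and 8.78 in knockout arrays, against 8.31, 8.08, 8.06 and 8.43 in control arrays. All knockout values were higher, and the rise was 1.43-fold (0.51, SE 0.092, adjusted p = 0.00269). It did not pass with the mesenchymal covariate (0.37, adjusted p = 0.0661). The other members of these classes, Sema5b, Sema6a, Sema6b and Sema6c, did not pass. Sema6a, a ligand of Plxna2 and Plxna4, read 8.67 to 8.86 in knockout and 8.65 to 9.03 in control arrays (−0.032, 95% interval −0.23 to 0.16). Sema5b, Sema6b and Sema6c had differences of 0.11, 0.15 and 0.082 and adjusted p of 0.545, 0.240 and 0.488.

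**Figure D3:**
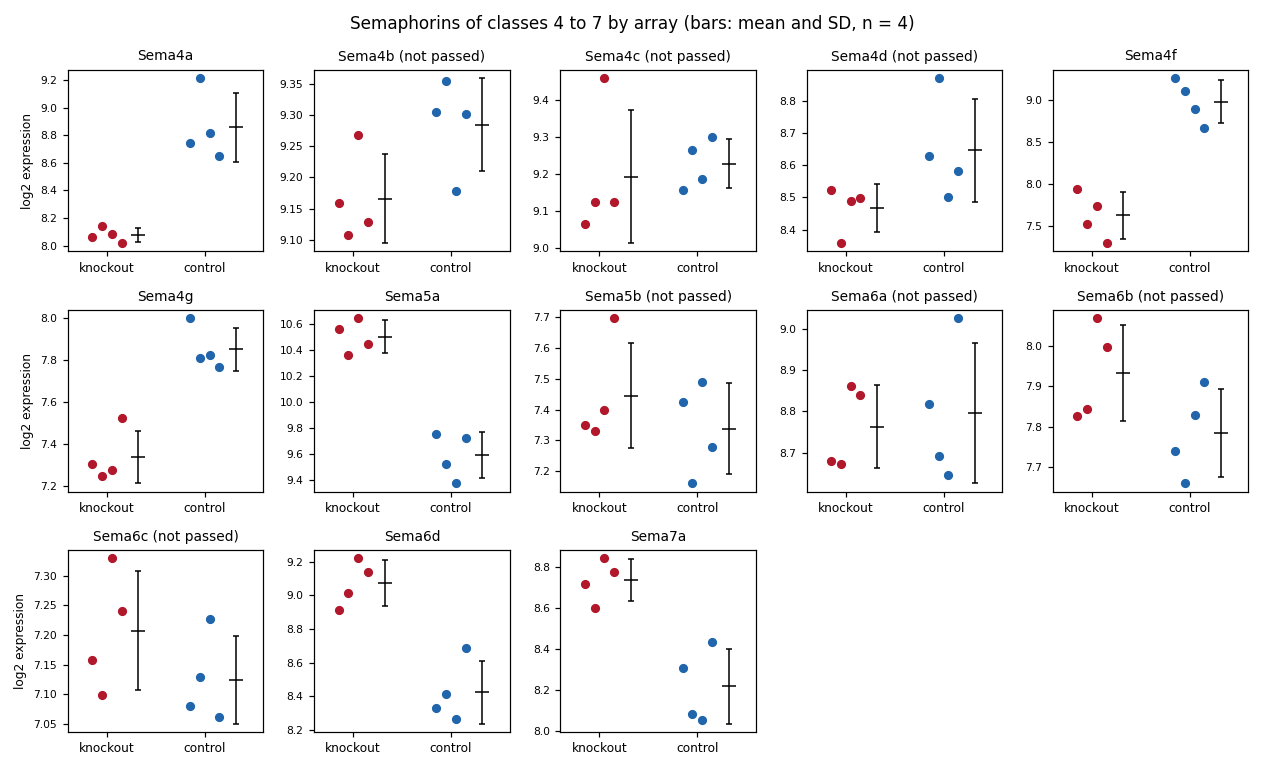
Log2 expression (vertical axis, on its own scale for each gene) of the semaphorins of classes 4 to 7 on each array, with 4 knockout arrays in red left of 4 control arrays in blue and the mean and SD beside them. Sema4a, Sema4f and Sema4g lie lower in every knockout array than in any control array, and Sema5a, Sema6d and Sema7a higher; in Sema4c knockout replicate 3, at 9.46, stands apart.

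Of the 9 plexins 2 rose, 1 fell and 6 did not pass, which is 33.3% called beside 18.8% of all genes. In the fit of the 9969 genes above the median level, 1483 of all genes were higher and 1593 lower. Family A held changes in both directions. Plxna1 (10546184), the receptor of class 3 and class 6 semaphorins, read 10.70, 10.65, 10.89 and 10.96 in knockout arrays, against 10.25, 9.96, 10.02 and 10.09 in control arrays. It rose 1.65-fold without overlap (0.72, SE 0.088, adjusted p = 2.25e-04). Plxna4 (10543802), which with Nrp1 receives Sema3a in sensory axons of the mouse, read 9.33, 9.15, 9.30 and 9.17 in knockout arrays, against 9.76, 9.68, 9.73 and 9.56 in control arrays. Its knockout values were all lower, and it fell 1.36-fold (−0.44, SE 0.068, adjusted p = 9.82e-04). Plxna2 read 9.97 to 10.13 in knockout and 10.01 to 10.30 in control arrays (−0.12, 95% interval −0.28 to 0.036, adjusted p = 0.305), and Plxna3 7.76 to 7.93 in knockout and 7.58 to 7.79 in control arrays (0.16, interval 0.011 to 0.30, adjusted p = 0.138).

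In family B, Plxnb2 (10431424), the plexin of Sema4c and Sema4g with known roles in epithelia, read 11.49, 11.51, 11.51 and 11.60 in knockout arrays, against 11.27, 11.24, 11.18 and 11.20 in control arrays. The arrays of each group lay close together, and the rise of 1.24-fold passed on that small spread (0.31, SE 0.054, adjusted p = 0.00225). Plxnb1, the receptor of Sema4d, read 10.46 to 10.58 in knockout and 10.25 to 10.47 in control arrays and did not pass (0.17, 95% interval 0.032 to 0.32, adjusted p = 0.0906). Plxnb3, a receptor of Sema5a, was dim at 6.80 to 6.99 in knockout and 6.94 to 7.05 in control arrays (−0.095, adjusted p = 0.337).

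Plxnd1 (10547100), the receptor of Sema3e and a gene of endothelial cells, read 9.70, 9.88, 10.12 and 10.31 in knockout arrays, against 9.68, 9.67, 9.65 and 9.78 in control arrays. The spread in knockout arrays (SD 0.27) was larger than in control arrays (SD 0.059), and knockout replicate 1 lay within the control range. It did not pass (0.31, SE 0.11, adjusted p = 0.0943), but it was called without knockout replicate 1 (0.41, adjusted p = 0.0169) and without knockout replicates 1 and 4 together (0.31, adjusted p = 0.0435). For replicates 1 to 4, the knockout arrays stood in the same order for the mesenchymal marker mean, at 8.71, 8.76, 9.14 and 9.18. The endothelial mean, at 9.51, 9.52, 9.61 and 9.66, and the mesothelial mean had this order too. The type 1 and the general epithelial means had exactly the reverse order, so the order singles out no marker list. With the mesenchymal mean as a covariate the difference of Plxnd1 was 0.043 (SE 0.10) and with the endothelial mean −0.037 (SE 0.20).

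Plxnc1 (10372028), the receptor of Sema7a, read 7.67, 7.67, 8.01 and 7.86 in knockout arrays, against 7.74, 7.88, 7.86 and 7.70 in control arrays. The groups overlapped (0.0092, 95% interval −0.18 to 0.20, adjusted p = 0.962), and the interval leaves room for a change of up to 0.20 on the log2 scale. Its sign turned when the arrays were centred or quantile-normalized and when single arrays were left out.

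Of the neuropilins, Nrp1 (10576639), the co-receptor of Sema3a and VEGF-A, read 10.57, 10.47, 10.60 and 10.37 in knockout arrays, against 10.80, 10.86, 10.70 and 10.81 in control arrays. Every knockout array lay lower, and Nrp1 fell 1.22-fold (−0.29, SE 0.067, adjusted p = 0.0117). The call ended without knockout replicates 1 and 4 together (−0.26, adjusted p = 0.0561) and with the mesenchymal covariate (−0.26, adjusted p = 0.122). Nrp2 (10346843), the co-receptor of Sema3f and VEGF-C, read 10.42, 10.26, 10.36 and 10.59 in knockout arrays, against 10.28, 10.02, 10.01 and 10.07 in control arrays. Knockout replicate 2 lay below control replicate 1, so the groups overlapped, and Nrp2 rose 1.24-fold (0.31, SE 0.086, adjusted p = 0.0269). That call ended without any 1 of knockout replicates 1 and 3 and control replicates 2, 3 and 4 (0.28 to 0.33, adjusted p = 0.0529 to 0.0805), without knockout replicates 1 and 4 together (0.21, adjusted p = 0.169), and with the mesenchymal covariate (0.27, adjusted p = 0.214).

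**Figure D4:**
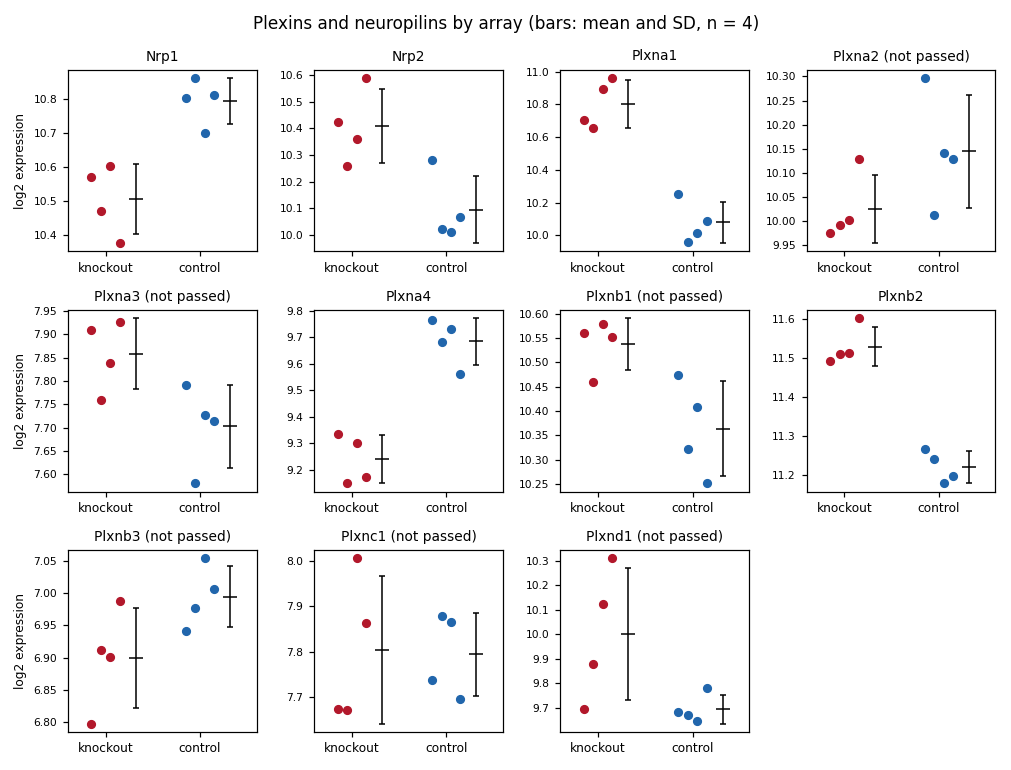
Log2 expression (vertical axis, on its own scale for each gene) of the 2 neuropilins and 9 plexins on each array, with 4 knockout arrays in red left of 4 control arrays in blue and the mean and SD beside them. Plxna1 and Plxnb2 lie higher and Plxna4 and Nrp1 lower in every knockout array than in any control array, Nrp2 overlaps, and the knockout points of Plxnd1 spread from 9.70 to 10.31.

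Set side by side as ligand and receptor, Sema3e rose while its receptor Plxnd1 missed the threshold, with a difference of 0.31 (limma, adjusted p = 0.0943). Sema7a rose while Plxnc1 did not pass (0.0092). Sema3a rose while its co-receptor Nrp1 and the plexin Plxna4 fell and Plxna1 rose. Sema3b rose, as did Sema3f and its co-receptor Nrp2. The difference of Nrp2 was also 0.31 (limma, adjusted p = 0.0269), so Plxnd1 and Nrp2 are parted by the threshold and not by size. Sema4g fell while Plxnb2 rose, and Sema4d and Plxnb1 both missed the threshold, with differences of −0.18 and 0.17. These are separate tests of each gene, and no test of a pair was made.

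Other genes of the pathway, listed from textbook knowledge as co-receptors and intracellular effectors of semaphorin signalling, changed in both directions. Among the 54 genes of that list that were measured, 12 rose and 6 fell, which is 33.3% called beside 18.8% of all genes, with a median difference of 0.098 against −0.016 over all genes. More genes are called at higher levels. In a fit of the 9969 genes above the median level, 13 of 42 list genes were higher and 4 lower. Of all 9969 genes 1483 were higher and 1593 lower. The adhesion molecule L1cam, which joins Nrp1 in the Sema3a receptor of axons, read 9.48, 9.61, 9.64 and 9.54 in knockout arrays, against 8.80, 8.57, 8.60 and 8.67 in control arrays (1.87-fold higher, 0.91, SE 0.067, adjusted p = 1.46e-05). Mical1, an oxidase of actin filaments that binds plexins of family A, rose 1.84-fold (0.88, SE 0.091), and Rras2, a Ras GTPase related to Rras, on which plexins act, rose 1.67-fold (0.74, SE 0.11).

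Met, the hepatocyte growth factor receptor that associates with plexins of family B, read 8.79, 8.46, 8.79 and 8.23 in knockout arrays, against 9.76, 10.01, 9.78 and 9.68 in control arrays. It fell 2.36-fold (−1.24, SE 0.13, adjusted p = 7.24e-05). Limk1, the kinase that inactivates cofilin, fell 1.62-fold (−0.70, SE 0.074), and Gsk3b, which phosphorylates collapsin response mediator proteins, fell 1.21-fold (−0.28, SE 0.059). All 8 arrays separated by group in each of these 6 genes. With the mesenchymal covariate 4 list members were higher and 2 lower, and Gsk3b was no longer called (−0.20, adjusted p = 0.148).

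**Figure D5:**
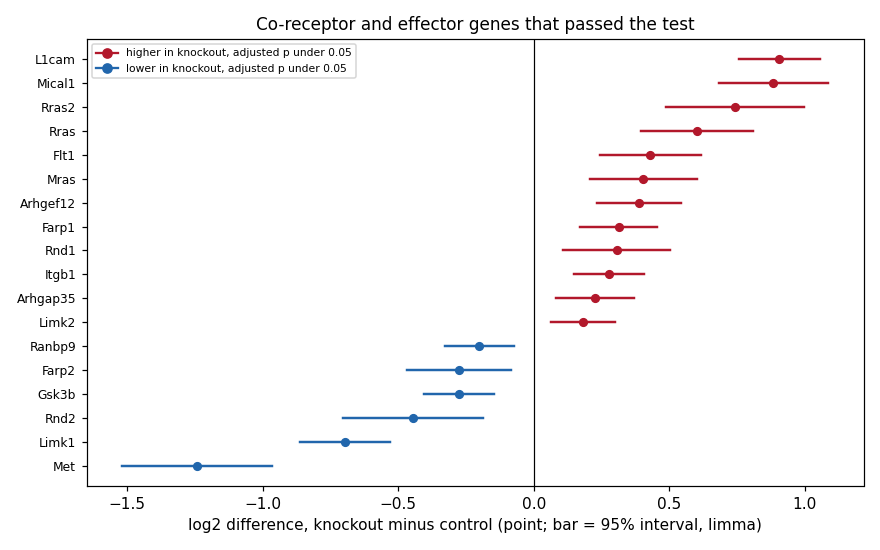
Log2 difference, knockout minus control (horizontal axis), of the 18 co-receptor and effector genes that passed the test (vertical axis), with bars for limma's 95% interval. The 12 genes that rose, in red, run up to 0.91 for L1cam, and the 6 that fell, in blue, down to −1.24 for Met.

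Of 10 measured growth factor ligands that bind neuropilins or were listed with them, 3 rose, 1 fell and 6 did not pass. That is 40% called, beside 18.8% of all genes, in a list of only 10. Named after their values were seen, Pdgfb, a platelet-derived growth factor chain, rose 2.13-fold (1.09, SE 0.075), Vegfa, the main vessel growth factor and here also a type 1 marker, 1.34-fold (0.42, SE 0.062) and Vegfc, a lymphatic growth factor, 1.21-fold (0.27, SE 0.060), while Vegfb fell 1.17-fold (−0.23, SE 0.065). A list of 3 genes with a plexin-like fold or name that are not plexins held Plxdc1, Plxdc2 and Mst1r. They did not pass (0.0072, 0.32 and 0.024). The list is not complete, and Met, which fell, was counted with the co-receptors instead.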

How the data were processed

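The values were the log2 expression deposited by the authors for 35556 probe sets on 8 arrays. The log2 scale was read from their range (2.89 to 13.95), and the normalization behind them is not given in the sources used here. Array medians lay between 7.21 and 7.30, so no further scaling was applied, and a change in total RNA per cell would not show. Symbols came from GEO's platform annotation (21789 probe sets with 1 symbol, 1621 with several, 12146 with none given). All 31 genes matched the RefSeq gene table by gene number with 0 symbols changed. The 999 genes with several probe sets were read by the one with the highest mean.

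The comparison of knockout with control used limma 3.58.1 (lmFit, then eBayes) under R 4.3.3, two-sided and without covariates. The fit was also run on simulated arrays with independent noise in each gene and known differences added. Those arrays held no shared shift of cell types, so they cannot show how such a shift affects the calls. The genes, the lists and the alternatives were chosen with earlier results of these data known, so no p was adjusted over a list alone. All 8 array values are given for genes that passed and for chosen ligand and receptor partners, and the 3 smallest p in each direction of the co-receptor list are named. The 17 alternatives are described at the end. Of the 58 genes listed as co-receptors and effectors, 4 were not analysed here. The neuroendocrine and neuronal (9 genes), club (9), ciliated (10), leukocyte (11) and mesothelial (6) marker lists had 2, 1, 0, 1 and 2 genes higher and 1, 5, 6, 1 and 0 lower. Over all genes 8.6% were higher and 10.2% lower.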

Additional observations from a re-analysis of the deposited data

Results flagged for a closer look

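Each group of 4 arrays was searched, gene by gene, for an array that stands apart from the other 3. Of 62 groups tested, 1 held such an array, where chance gives about 1 in 20. Sema4c read 9.46 in knockout replicate 3, while the other knockout arrays lay between 9.06 and 9.13.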

How the results depend on the processing

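Of the 17 called genes, 12 (Sema3a, Sema3b, Sema3c, Sema3e, Sema4a, Sema4f, Sema4g, Sema5a, Sema6d, Plxna1, Plxna4 and Plxnb2) were called in the same direction under the 16 alternatives other than the endothelial covariate. Under that covariate 0 of the 31 genes were called, higher or lower, in the semaphorins, class 3, class 4 and the receptors alike, and over all genes 84 were higher and 171 lower, and of the co-receptor list 1 and 0. The mesenchymal covariate left 824 genes higher and 1020 lower over all genes, 1 receptor lower, and 4 co-receptor genes higher and 2 lower. Without knockout replicates 1 and 4 together, 1 receptor was lower. Leaving out single arrays gave 10 to 12 of the 31 genes higher and 5 lower, and 3 to 5 co-receptor genes lower, the fewest without control replicate 4. Signs that turned were all of genes that did not pass. Plxnc1 lay between −0.058 and 0.053 when single arrays were left out, and turned to −0.00084 with arrays centred on their medians, to −0.0090 with quantile normalization and to −0.093 with the mesenchymal covariate. Sema4c lay between −0.12 and 0.0089 when single arrays were left out and turned to 0.064 without knockout replicates 1 and 4 together, and Sema6a lay between −0.082 and 0.044, its value without control replicate 4. Sema3g and Sema6b turned to −0.033 and −0.011 with the mesenchymal covariate and to −0.039 and −0.067 with the endothelial one, which also turned Plxnd1 to −0.037. The cause of these changes was not tested. Under the endothelial covariate the SE was larger, and the differences of the 17 called genes had a median of 0.67 of their main size. Array centring moved the median of all genes by −0.010 and quantile normalization by −0.0068. With the replicate number as a block all 17 genes were called as before, 12 higher and 5 lower, and no other gene was. The correlations of same-numbered arrays' deviations (0.060, 0.095, −0.082 and 0.044) do not pair the arrays, and 1 of 4 knockout arrays matched its own number best. Without genes below the median level, 26 of the 31 genes were tested.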
